A study of Mus musculus with 9 samples.

Results

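Actin filaments are built from actin monomers, and a set of binding proteins decides whether the monomers are stored, added to filament ends, branched off existing filaments, bundled into rods or taken apart again. Dendritic cells use this machinery to extend dendrites, to migrate and to form contacts with T cells, and fascin, a bundling protein, is known as a gene switched on when dendritic cells mature. The values below describe 10 genes of this machinery in plasmacytoid dendritic cells (pDCs), the cells known for producing large amounts of type I IFN. The genes were chosen by name: the cytoplasmic actins *Actb* and *Actg1*, the monomer-binding genes *Tmsb4x* and *Pfn1*, the severing gene *Cfl1*, the filament-binding gene *Coro1a*, the branching gene *Arpc2*, the GTPase inhibitor *Arhgdib* and the bundlers *Lcp1* and *Fscn1*. They were 10 of the 52550 genes with a deposited value, all 10 had reads, and no filter was applied.

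The experiment compared pDCs of 3 genotypes with 3 samples each: WT (G/G), and *Ncf1*-KI mice with 1 (G/A) or both (A/A) alleles changed, all on the C57BL/6 background and all stimulated. Per the study's methods the mice were female and 10 to 12 weeks old, the KI allele was made with CRISPR/Cas9, and splenic cells were sorted as CD11c-int SiglecH+ PDCA1+ and cultured for 12 hours with 10 μg/mL R848, an agonist of TLR7 and TLR8. The values are those of A/A replicate 1. The remaining 8 samples are not analysed here, which leaves every value without a replicate error, and no genotypes or unstimulated cells were compared.

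The A/A library held 31408298 reads on 17664 genes. Levels are given on 2 scales. CPM is a gene's reads scaled to 1000000 reads and depends on transcript length. TPM is its reads per kilobase of exon, scaled to 1000000 over all genes, and is the scale used when genes are compared with each other. Intervals are Wilson 95% CIs unless a ratio is given. Reads amplified by PCR and not tagged by molecule are not independent, so all intervals cover counting error only. All 11 pDC markers had reads, from *Tcf4* (34.0 TPM) to *Ly6d* (6001 TPM), with a median of 251 TPM, against a median of 20.8 TPM over the 7 markers of conventional dendritic cells and 22.9 TPM over 4 macrophage markers. *Tcf4*, *Pacsin1* (35.3 TPM) and *Runx2* (55.7 TPM) lay below *Clec9a* (58.4 TPM) and *Flt3* (57.0 TPM) of the conventional list. This order depended on the measure, and the annotated exons of *Tcf4* cover 27382 bases. In CPM *Tcf4* (358) and *Runx2* (189) were above *Flt3* (135), the highest of the conventional list, and *Pacsin1* (88.6) was below *Flt3*. That list is not exclusive to conventional cells. It holds *Itgax* (20.8 TPM), the gene of CD11c, on which the pDCs were sorted. For blots the study also grew pDCs from bone marrow with FLT3L, the ligand of the *Flt3* product, which is another source than the splenic cells here. Which cells the *Flt3* and *Clec9a* reads came from was not tested. The 5 NK cell markers and the 5 fibroblast and muscle markers were at 0, as were 4 of the 5 T cell markers (*Cd3d*, *Cd3e*, *Cd3g* and *Bcl11b*), while *Lat* had 155 reads. The Y-linked genes *Ddx3y* and *Eif2s3y* had 102 and 86.1 CPM and *Xist* was listed at 0, which goes against the stated sex of the mice.

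*Actb* and *Actg1* encode almost the same protein, and the starts of their coding sequences are shown first because the value of *Actg1* has to be read beside genes of nearly the same sequence. The coding sequences of *Actb* (chr5:142903115-142906754, minus strand of GRCm38) and *Actg1* (chr11:120345690-120348542, minus strand) had the same length, 1128 bases or 376 codons with the stop, and 88.7% of their bases were identical. They differed in 125 codons, but only 4 of these, between codons 2 and 10, encoded another amino acid. The 4 changed codons lie in the first 60 bases, printed here from GENCODE transcripts for both genes and for *Gm12715* (chr4:103563402-103564529, plus strand), an intronless processed pseudogene that copies *Actg1*. Capitals mark the bases at which the 3 sequences are not all the same.
Actb: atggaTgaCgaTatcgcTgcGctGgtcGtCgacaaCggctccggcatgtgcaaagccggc
Actg1: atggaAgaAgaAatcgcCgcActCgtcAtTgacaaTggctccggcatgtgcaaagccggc
Gm12715: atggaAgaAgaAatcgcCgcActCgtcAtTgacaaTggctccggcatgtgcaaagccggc
The stretches lie at chr5:142905627-142905686, chr11:120348032-120348091 and chr4:103563402-103563461. Over these 60 bases the pseudogene carried the letters of *Actg1* throughout. Over the whole 1128-base coding sequence, 99.6% of its bases were those of *Actg1* and 88.8% those of *Actb*. Of the 128 positions that tell both genes apart, 125 had the base of *Actg1* and 3 that of *Actb*.

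*Actb*, the β-actin gene, had more reads than any other gene in the library. It had 518510 reads, or 16509 CPM (95% CI, 16464 to 16553), which was 1.65% of all reads and 59.7% of the reads of the 10 genes together. On the TPM scale it was in place 5 of all genes, at 16029 (95% CI, 15985 to 16072). The next protein-coding genes above and below it in TPM were *Cd74*, the MHC class II invariant chain, at 21609 and the MHC class I gene *H2-D1* at 12464. *Actg1*, the γ-actin gene, had 25073 reads, or 798 CPM (95% CI, 788 to 808), and 781 TPM (95% CI, 772 to 791). *Actb* therefore stood 20.5 times as high as *Actg1* in TPM (exact binomial 95% CI, 20.3 to 20.8). The closest protein-coding genes to *Actg1* were *Apod* (788 TPM) above and *Rac2* (774 TPM) below, and both intervals overlapped that of *Actg1*.

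The muscle actin genes were at or near 0. *Acta2*, *Actc1* and *Actg2*, the genes of smooth and cardiac muscle actins, were at 0, where the limit that a count of 0 allows (3 reads) is 0.0955 CPM. The skeletal muscle gene *Acta1* had 9 reads, or 0.287 CPM, and 2.02% of its 50-base windows occurred in other genes.

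Part of the *Actg1* signal cannot be assigned to *Actg1* from the values alone. Of the 50-base windows of its annotated transcripts, 36.3% occurred identically in a gene elsewhere in the genome. *Gm12715* shared 973 windows (33.2%), *Gm8399* 677 and *Actg-ps1* 424. These 3 processed pseudogenes had 6534, 244 and 89 reads. *Gm12715* thus reached 480 TPM (208 CPM), above *Fscn1* in TPM (370) and below it in CPM (428). The 9 pseudogenes with a deposited value that shared more windows with *Actg1* than with any other gene of the actin lists all had reads. Their 6926 reads came to 27.6% of the reads of *Actg1*. With these reads added to *Actg1*, the TPM ratio of *Actb* to *Actg1* was 16.1. *Actb* itself was less affected: 9.12% of its 50-base windows occurred elsewhere, 179 of them in *Lrrc58* and 30 in *Actg1*, and the 3 pseudogenes nearest to it had 71 reads in all. With 150-base windows, the read length of the library, the shares were 23.3% for *Actg1* and 0% for *Actb*.

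**Figure D1:**
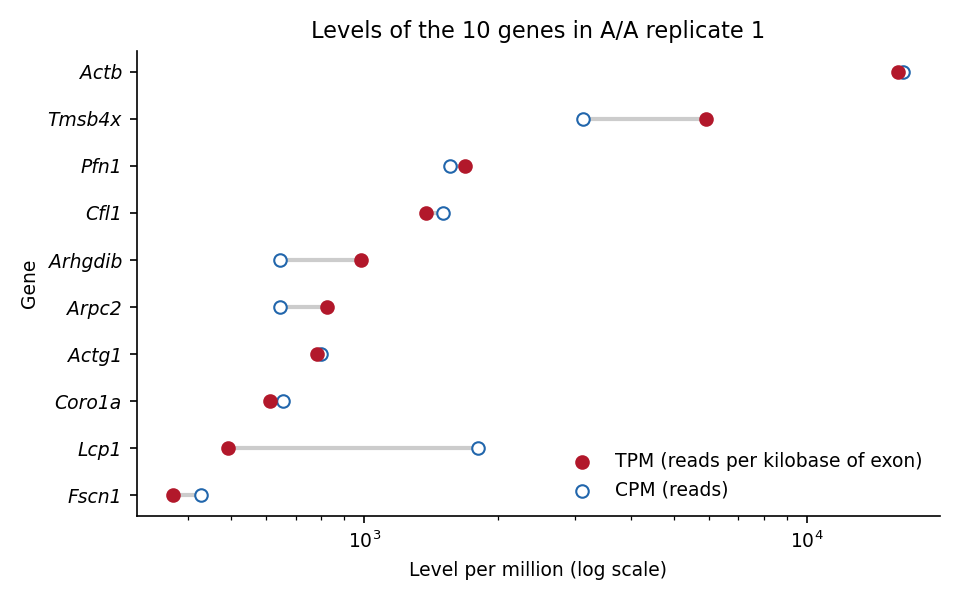
Levels of the 10 genes in A/A replicate 1, on a log axis, as CPM (open points, all reads of a gene) and as TPM (filled points, reads per kilobase of exon); grey bars join both values of a gene. *Actb* stands apart at 16509 CPM and 16029 TPM, and *Lcp1*, the gene with the longest annotated exons, moves from 1802 CPM to 493 TPM; counting intervals are narrower than the points.

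*Tmsb4x*, which encodes thymosin β4, a small peptide that holds actin monomers in reserve, was second of the 10 genes on both scales. It had 98068 reads, or 3122 CPM (95% CI, 3103 to 3142), and 5924 TPM (95% CI, 5887 to 5961), and lies at chrX:167207093-167209315 on the minus strand. In TPM it fell between *Ly6d* (6001), a pDC marker, and *Ctss* (5712), the cathepsin that processes the invariant chain. The intervals of *Tmsb4x* and *Ly6d* overlapped and those of *Tmsb4x* and *Ctss* did not. *Actb* was 2.71 times as high in TPM (95% CI, 2.69 to 2.72). The paralog *Tmsb10* had 22417 reads and 1455 TPM, so that *Tmsb4x* was 4.07 times as high (95% CI, 4.01 to 4.13). No 50-base window of *Tmsb4x* occurred in another gene, against 27.0% of those of *Tmsb10*.

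*Pfn1*, profilin, which binds monomers and delivers them to growing filament ends, had 49009 reads, or 1560 CPM (95% CI, 1547 to 1574), and 1688 TPM (chr11:70651850-70654644, minus strand). *Tmsb4x* was 3.51 times as high in TPM (95% CI, 3.47 to 3.55). Nearly all profilin reads were on this gene. *Pfn2* had 25 reads (0.585 TPM) and *Pfn3* and *Pfn4* were at 0, so *Pfn1* was 2886 times as high as *Pfn2* in TPM, with a wide interval of 1955 to 4461. The other monomer-binding genes were lower: *Twf2* had 105 TPM, *Twf1* 21.9 and *Cap1* 7.61, while *Cap2* was at 0. In this list of 10 genes the highest were *Tmsb4x* and *Pfn1* by the union of exons, with *Tmsb10* next at 1455 TPM. By the longest transcript *Tmsb10* was above *Pfn1*. There *Tmsb4x* had 7527 TPM, or 3.49 times the level of *Tmsb10*, and *Pfn1* had 1627.5 TPM. In level *Pfn1* lay between *Unc93b1* (1703 TPM), the chaperone of endosomal TLRs, and the IFN-inducible *Ifi211* (1638 TPM). No 50-base window of *Pfn1* occurred in another gene and no annotated exon overlapped it.

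*Cfl1*, cofilin, which severs filaments and returns monomers to the pool, had 47395 reads, or 1509 CPM (95% CI, 1496 to 1523), and 1380 TPM (chr19:5490455-5495201, plus strand). *Pfn1* was 1.22 times as high in TPM (95% CI, 1.21 to 1.24). *Cfl1* was 144 times as high as *Cfl2* (9.58 TPM, 378 reads) and 23.6 times as high as *Dstn* (58.4 TPM), the other members of its family. Among the 13 genes for severing and turnover, *Gsn*, gelsolin, came second to *Cfl1* at 239 TPM, and *Vil1*, villin, was at 0. The LIM kinases that phosphorylate cofilin were low, with *Limk2* at 13.0 TPM and *Limk1* at 1.80. The exons of *Snx32* on the opposite strand covered 16.5% of the exon bases of *Cfl1*, but *Snx32* had only 199 reads. Processed pseudogenes of *Cfl1* had 37 reads in all. The coding genes closest in level were the IFN-inducible *Ifi209* (1383 TPM) and *Plac8* (1370 TPM), both with intervals that overlapped that of *Cfl1*.

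*Arpc2* encodes a core subunit of the Arp2/3 complex, which starts new branches on existing filaments. It had 20257 reads, or 645 CPM (95% CI, 636 to 654), and 825 TPM (chr1:74236084-74268209, plus strand). Of the 10 genes listed for the complex, all had reads, and *Arpc5* (1112 TPM) and *Arpc2* were the highest by the union of exons. By the mean coding transcript the ratio of *Arpc2* to *Arpc5* was 1.08, and that of *Arpc2* to *Arpc1b* turned over from 2.27 to 0.974, or 0.904 in CPM. *Arpc1b*, *Actr3*, *Arpc4* and *Actr2* followed at 363, 322, 313 and 268 TPM. *Arpc1a*, whose product takes the same place in the complex as that of *Arpc1b*, had 68.7 TPM, and *Arpc3* had 88.4. Leaving out *Actr3b* (1.88 TPM), an alternative form of *Actr3*, the 9 genes spanned 16.2-fold in TPM by the union of exons. *Arpc1a*, an alternative to *Arpc1b*, and *Arpc5l* (188 TPM), an alternative to *Arpc5*, were kept, and *Arpc1a* set the low end of that span. By the mean coding transcript the ratio of *Arpc2* to *Arpc1a* fell from 12.0 to 9.46, and that to *Arpc3* from 9.34 to 4.65. Genes of the complex thus stood at unlike RNA levels, by a size that depended on the length definition. Pseudogenes touched some of them: 26.3% of the 50-base windows of *Actr3* and 7.68% of those of *Arpc1b* occurred elsewhere, against 0.145% of those of *Arpc2*.

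The list of 18 genes that activate the Arp2/3 complex had a median of 8.86 TPM over all its genes, against 291 for the complex, and *Wasf1* and *Wasf3* were at 0. *Brk1* (420 TPM) and *Hcls1* (142 TPM), the hematopoietic cortactin relative, were the highest in TPM, with *Brk1* above 8 of the 10 genes of the complex. In CPM *Cyfip1* (397), *Cyfip2* (206) and *Nckap1l* (192) were above *Brk1* (177). Of the complex, *Brk1* was then above only *Arpc3* (93.8), *Arpc1a* (67.8) and *Actr3b* (1.75). *Cttn*, cortactin itself, had 21 reads. *Was*, the gene of the Wiskott-Aldrich syndrome protein of blood cells, had 243 reads and 8.45 TPM. The hematopoietic *Nckap1l* had 84.2 TPM and the broadly expressed *Nckap1* 1.65. *Cttn*, *Was*, *Nckap1*, *Nckap1l*, *Cyfip1* and *Cyfip2* were named after their values were seen.

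*Coro1a*, coronin 1A, a filament-binding protein of leukocytes, had 20560 reads, or 655 CPM (95% CI, 646 to 664), and 612 TPM (chr7:126699773-126707787, minus strand). It was not the highest of the 7 coronin genes by exon length: *Coro1b* had 24846 reads and 642 TPM, a ratio of *Coro1a* to *Coro1b* of 0.953 (95% CI, 0.935 to 0.970). That order turned over when the longest transcript of each gene was used, with a ratio of 1.33. *Coro1c* was lower, at 20.5 TPM, and *Coro2b* and *Coro6* were at 0. The genes next to *Coro1a* in level were *Trim30a* (614 TPM), an IFN-inducible gene, and *Cd53* (607 TPM), a tetraspanin of leukocytes. Transcripts of other genes at the locus of *Coro1b* held 10.9% of its 50-base windows, while no window of *Coro1a* occurred in another gene.

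*Arhgdib* encodes a GDP dissociation inhibitor (GDI) of blood cells, which keeps the small GTPases that steer actin inactive in the cytosol. It had 20207 reads, or 643 CPM (95% CI, 635 to 652), and 980 TPM (chr6:136923655-136941899, minus strand). The widely expressed paralog *Arhgdia* had 34072 reads and 1250 TPM, so the ratio of *Arhgdib* to *Arhgdia* was 0.784 (95% CI, 0.771 to 0.798), and *Arhgdig* was at 0. With the longest transcript the ratio was 1.07 and with the mean coding transcript 1.45, so the order of both GDI genes was not settled by these data. The exons of *Pde6h*, a gene on the opposite strand with 1953 reads, covered 7.97% of the exon bases of *Arhgdib*. Of the small GTPases of this family, *Cdc42* (790 TPM) and *Rac2* (774 TPM) were the highest of 11 genes, all of which had reads. *Rhoa* had 135 TPM, and *Rac1* had 199, with 51.4% of its exon bases under exons of the opposite strand.

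The bundlers were the lowest of the 10 genes by exon length. *Lcp1*, L-plastin, the plastin of blood cells, had 56599 reads, or 1802 CPM (95% CI, 1787 to 1817), the third highest of the 10 in CPM (chr14:75131101-75230842, plus strand). Its 11 annotated transcripts covered 9504 exon bases, while its longest transcript had 3841. It therefore had 493 TPM over all exon bases, 977 by its longest transcript and 1519 by the mean of its coding transcripts. *Pls3* and *Pls1*, the plastins of other tissues, had 49 and 13 reads. *Lcp1* was 515 times as high as *Pls3* in TPM (95% CI, 389.6 to 696). That interval covers counting error only: the ratio was 975 by the longest transcript and 1919 by the mean coding transcript.

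*Fscn1*, fascin, bundles parallel filaments in the dendrites of mature dendritic cells and was the lowest of the 10 genes on every scale used. It had 13442 reads, or 428 CPM (95% CI, 421 to 435), and 370 TPM (95% CI, 363 to 376), at percentile 97.8 of the genes with reads in CPM. The gene lies at chr5:142960343-142973185 on the plus strand, the next of the 10 genes on chromosome 5 after *Actb*. *Fscn2*, a fascin of other tissues, had 6 reads, and *Fscn3* was at 0. No 50-base window of *Fscn1* occurred in another gene and no exon overlapped it. The protein-coding genes closest to it were *Sdc3* (369.8 TPM), a syndecan, and *Atp6v0c* (369 TPM), a proton pump subunit, and their intervals overlapped that of *Fscn1*.

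*Fscn1* is usually listed with genes that mark mature dendritic cells, and 12 such genes were read beside it. All except *Ccl17*, which was at 0, had reads. *Ccr7*, the receptor that guides dendritic cells to lymph nodes, was the highest at 4851 TPM, followed by *Tmem123* (3497), the activation marker *Cd83* (1888) and the chemokine gene *Ccl22* (1507). *Fscn1* was below 7 of the 12 in TPM and above *Cd40* (335), *Anxa3* (90.2), *Socs2* (74.0) and *Nudt17* (32.1). In CPM it was below 8 of the 12, as *Cd40* had 439 CPM against 428 for *Fscn1*. The genes listed for conventional dendritic cells, which also express *Fscn1* when mature, ran from 0 for *Cd209a* to 58.4 TPM for *Clec9a*. *Flt3* was at 57.0, *Zbtb46* at 32.3, *Itgax* at 20.8, *Clec10a* at 2.11 and *Xcr1* at 1.00. The list is not exclusive to conventional cells, as stated for *Itgax* above. Its summed level was 358 CPM over 7 genes, against 10293 CPM over the 11 pDC markers. The part of conventional cells in the *Fscn1* value was not tested. In bulk RNA, fewer cells of a type and less RNA per cell cannot be told apart.

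**Figure D2:**
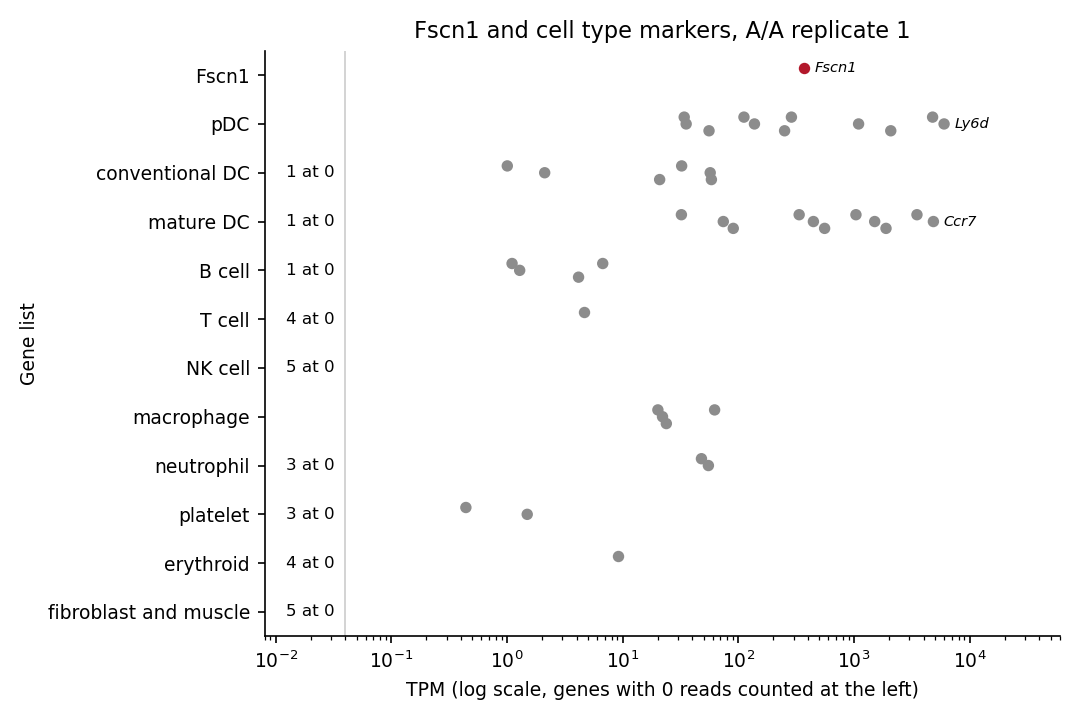
TPM of *Fscn1* (red, top line) and of the genes in 11 marker lists in A/A replicate 1, 1 point per gene on a log axis, with the number of genes at 0 reads written at the left. *Fscn1* (370) lies within the range of the pDC and mature DC lists and above every conventional DC, B cell, T cell, macrophage, neutrophil, platelet and erythroid marker.

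Other blood cells are rich in actin genes, so their markers were read as well. The 4 macrophage markers given here summed to 109.6 CPM, all with reads, of which *C1qb* was the highest at 62.3 TPM and *Adgre1* the lowest at 20.1. Neutrophil markers summed to 24.3 CPM, from *S100a8* and *S100a9*, while *Mpo*, *Elane* and *Ly6g* were at 0. Platelets carry much *Tmsb4x* RNA, and the platelet markers *Ppbp*, *Gp9* and *Gp1bb* were at 0, with *Itga2b* at 29 reads and *Pf4* at 13. The B cell markers summed to 10.4 CPM, with *Pax5* at 0. The erythroid markers summed to 2.83 CPM, all of it from *Hba-a1*. The fibroblast and muscle markers, which would accompany muscle actins, were at 0 in all 5 genes.

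Taken by exon length, the order of the 10 genes was *Actb*, *Tmsb4x*, *Pfn1*, *Cfl1*, *Arhgdib*, *Arpc2*, *Actg1*, *Coro1a*, *Lcp1* and *Fscn1*, over a 43.4-fold range in TPM that was 16.0-fold without *Actb*. No neighbours in this order had overlapping counting intervals, and the closest pair, *Arpc2* and *Actg1*, had a ratio of 1.06 (95% CI, 1.04 to 1.08). The definition of length mattered more than the counting error. *Actb*, *Tmsb4x*, *Pfn1*, *Cfl1* and *Fscn1* held places 1 to 4 and 10 with the longest transcript, with the mean coding transcript and with pseudogene reads added. The other 5 genes changed places: *Lcp1* stood between 5 and 9, *Arpc2* between 6 and 9 and *Actg1* between 5 and 8. Even *Fscn1*, the lowest, was in place 369 of all genes in TPM and 389 in CPM. The 10 genes held 2.77% of all reads, and 1.12% without *Actb*. In CPM, 5 of them were above percentile 99 of the genes with reads, and 7 were in TPM.

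**Figure D3:**
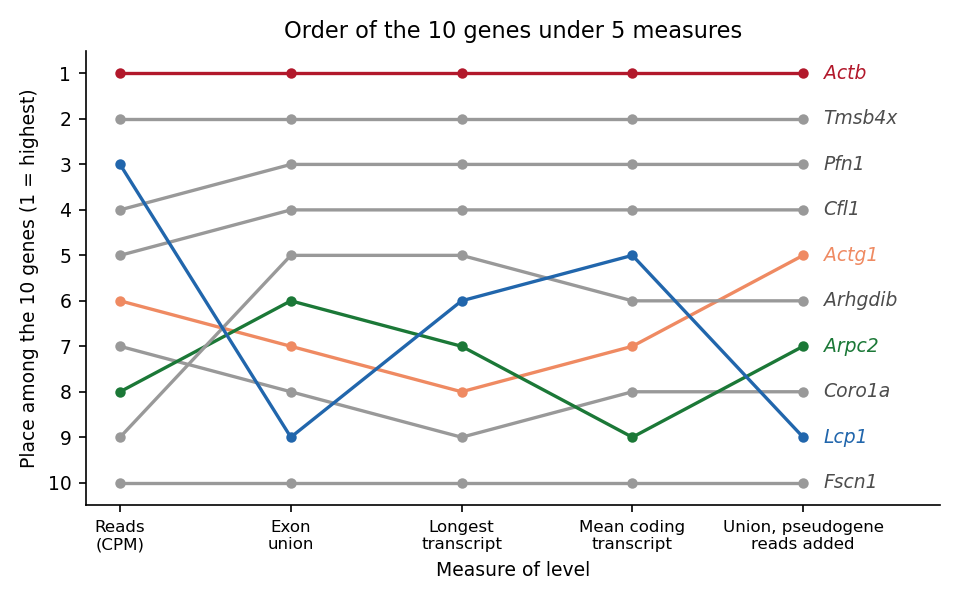
Place of each of the 10 genes (1 is the highest) under 5 measures of level in A/A replicate 1: CPM, then TPM with the union of exons, the longest transcript, the mean coding transcript, and the union with pseudogene reads added. The lines of *Actb*, *Tmsb4x* and *Fscn1* stay level, while *Lcp1* moves from place 3 in CPM to place 9 with the exon union.

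The 10 genes were also set among 146 genes of actin dynamics in 15 lists. Of these, 123 had reads and 23 were at 0. Over all 52550 genes of every type, 17664 had reads. Of the 123 with reads, 92 lay above 4.94 TPM, the median of all genes with reads. The median over the 123 genes was at percentile 84.3 in TPM. Of the 15 lists, 7 held at least 1 of the 10 genes. Among the 16 bundlers and crosslinkers *Marcksl1* (1391 TPM) was higher than *Lcp1* by the union of exons, a ratio of *Lcp1* to *Marcksl1* of 0.355 that turned over to 1.92 by the mean coding transcript, *Flna*, filamin A, had 140 TPM, and *Actn2*, *Actn3*, *Flnc* and *Espn* were at 0.

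The lists that held none of the 10 genes differed widely in level. The formins, which elongate unbranched filaments, were low: the highest of 13, *Fmnl2* and *Fmnl1*, had 22.7 and 15.2 TPM, and *Daam2*, *Fhod3* and *Fmn2* were at 0. In the capping list *Capza2* (486 TPM) and *Capza1* (292 TPM) were the highest and *Capza3* was at 0, but 61.4% of the 50-base windows of *Capza1* occurred elsewhere. *Msn*, moesin, which ties filaments to the membrane, had 687 TPM, far above its relatives *Ezr* (77.4) and *Rdx* (25.9). Among 12 myosin genes *Myo1g*, a myosin of blood cells, led at 637 TPM, the light chain *Myl6* followed at 201, and *Myh14* and *Myl9* were at 0. The tropomyosins *Tpm4* and *Tpm3* had 595 and 342 TPM, and all 9 guanine nucleotide exchange factors had reads, led by *Vav1* (236) and *Dock8* (114).

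**Figure D4:**
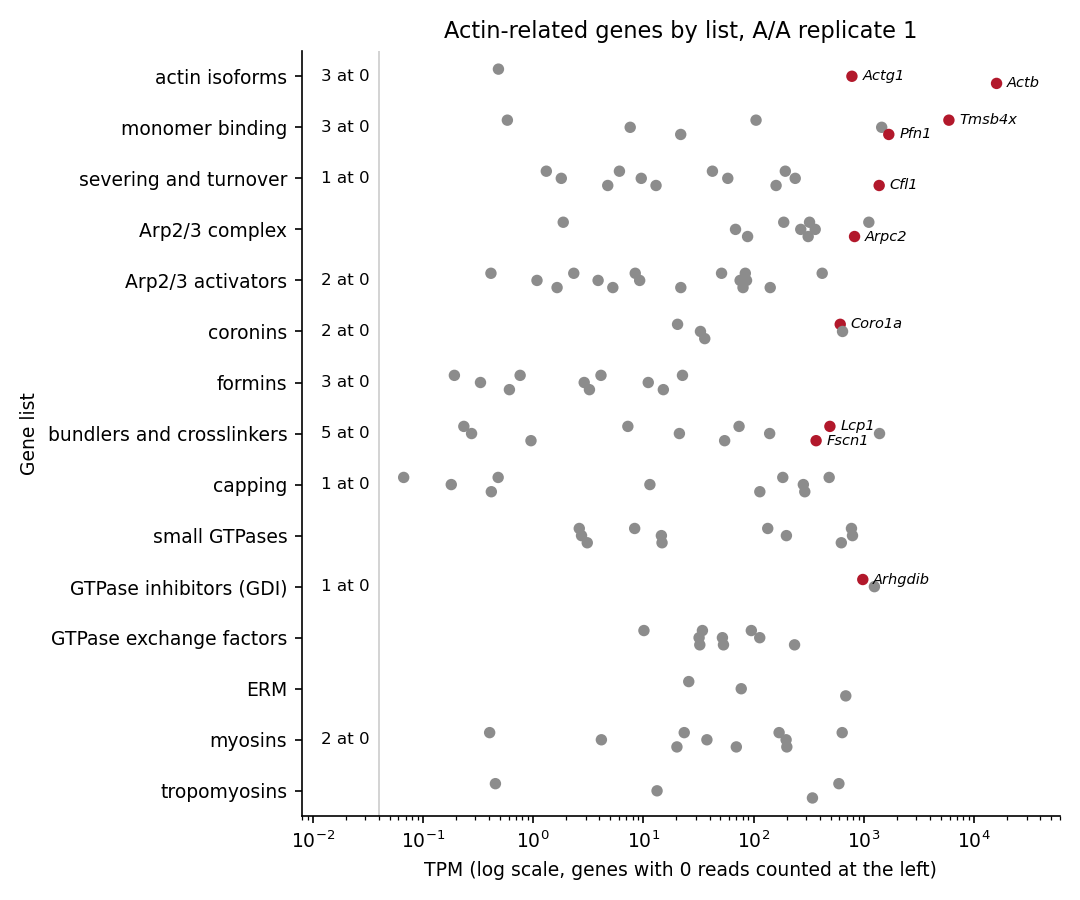
TPM of 146 actin-related genes by list in A/A replicate 1, 1 point per gene on a log axis, with the 10 genes of interest in red and the number of genes at 0 reads written at the left. The red points lie at the right edge of their lists, with *Arpc5*, *Coro1b*, *Arhgdia* and *Marcksl1* further right by the union of exons; the longest or the mean coding transcript turned over each of these 4 orders, for *Marcksl1* that against *Lcp1*.

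The paralog ratios differed in size. *Pfn1*, *Cfl1*, *Lcp1* and *Fscn1* exceeded their nearest relatives by more than 20-fold in TPM under each length definition, as *Actb* exceeded *Actg1*. By contrast *Coro1a* and *Coro1b*, and *Arhgdib* and *Arhgdia*, were within 1.5-fold of each other under each definition of length, with the direction set by the definition. The ratio of *Tmsb4x* to *Tmsb10* ran from 3.26 with the mean coding transcript to 4.07 with the union of exons, and that of *Coro1a* to *Coro1c* from 12.5 to 29.9.

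**Figure D5:**
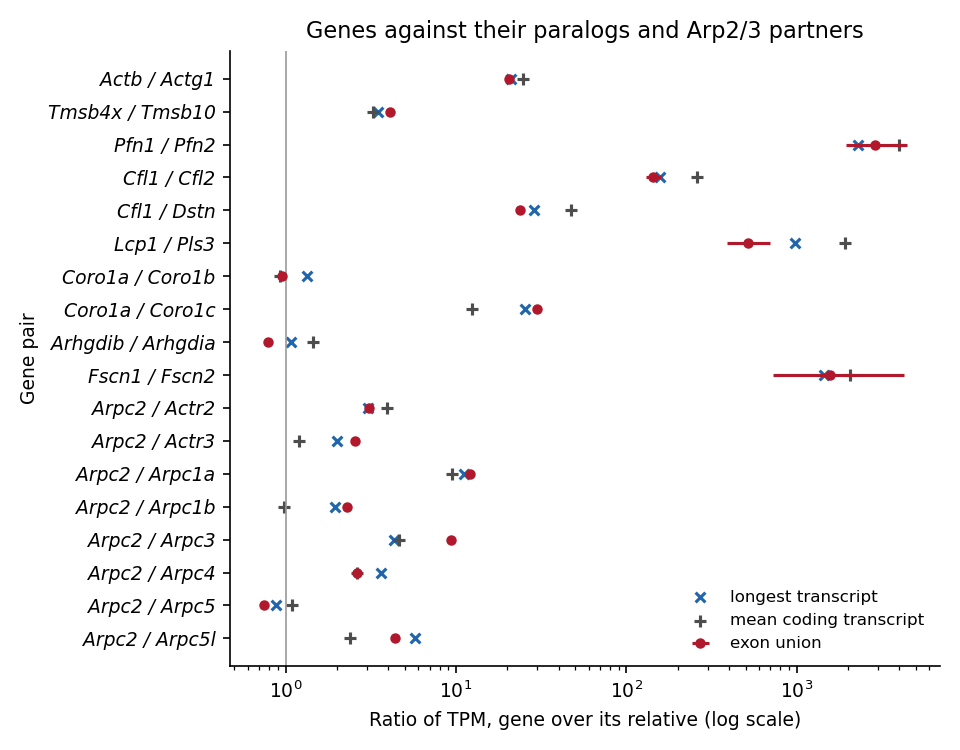
Ratio of TPM of each gene to its paralog or Arp2/3 partner in A/A replicate 1 on a log axis, with the exact binomial 95% interval for the union of exons (circles) and the ratios by longest transcript (crosses) and mean coding transcript (plus signs). *Pfn1*/*Pfn2* lies at 2886 and *Coro1a*/*Coro1b* at 0.953, next to the line at a ratio of 1.

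Promoter sequences from RefSeq (GRCm38.p6, 250 bases before to 50 after a start) matched 9 of the 10 genes, all except *Actb*, with 13 promoters, and were searched on both strands for 4 motifs, whose matches did not overlap each other in these 13. The CArG box, the element bound by serum response factor and known from actin genes, was in 1.63% of all 32851 promoters and in 1 of the 13, that of *Actg1*. In the actin lists it was in 8 of 164 promoters. Among the 122 genes of the actin lists with a promoter, 8 held it, *Acta1*, *Actc1*, *Arpc4*, *Myl6*, *Myl9*, *Myo1e* and *Vil1* beside *Actg1*. The stretch of *Actg1* with the box in capitals is at chr11:120348556-120348605, minus strand.
Actg1: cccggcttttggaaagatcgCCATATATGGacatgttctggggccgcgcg
The box began 90 bases before the start. Of the 8 genes with the box, *Actc1*, *Myl9* and *Vil1* were at 0 in this library, *Acta1* had 9 reads and *Actg1* was the highest in TPM.

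The TATA box (TATAAA) was in 13.6% of all promoters and in 2 of the 13, 1 each of *Fscn1* and *Arhgdib*. In *Fscn1* it began 31 bases before the start, and the stretch is shown because it is the one TATA box in this position among the 13 promoters (chr5:142960304-142960349, plus strand).
Fscn1: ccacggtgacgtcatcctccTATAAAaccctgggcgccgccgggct
The GC box (GGGCGG) was in 35.7% of all promoters, in 114 of the 164 promoters of the actin lists and in 9 of the 13, with 5 boxes in that of *Actg1* and none in that of *Fscn1*. The CCAAT box was in 37.4% of all promoters and in 2 of the 13, those of *Actg1* and *Cfl1*. A match describes letters in a window and not a bound site, and these data hold no binding measurement.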

How the data were processed

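Total RNA of sorted splenic pDCs was made into mRNA libraries and sequenced as 150-base paired-end reads, according to the study's methods. Per the labels' processing notes, the submitters used HISAT2 and StringTie and name the builds mm8 and mm10, without versions or roles. The use of strand is not given in the sources used here. The deposited value of each gene is a normalized signal without a stated unit. Every value above 0 was a whole multiple of 1.19 (tolerance 0.01 reads), so dividing by that step gave whole numbers for 100% of them. These are taken as reads. Recovery was tested on 3 simulated libraries of 52550 genes, where 100% of the reads were recovered. These libraries were whole counts divided by a single factor, so they check the rounding only. Whether the deposited values stand for reads, fragments or estimated counts was not tested.

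Gene identifiers without versions were matched to GENCODE M21 for 99.7% of genes; 95.2% of the matched genes, and all 10 genes described, had identical coordinates (GRCm38). The length column was the genomic span and was not used. TPM used the union of annotated exons. Alternatives were the longest transcript, the mean coding transcript, CPM, other sets of genes for percentiles, a total without the 10 genes with most reads, a minimum of 10 reads, 150-base in place of 50-base windows, and pseudogene reads added to the gene sharing most windows. Intervals are Wilson (levels) or Clopper-Pearson on the reads of both genes (ratios). With 1 library no test was run. Shared windows are identical 50-base stretches, on either strand, in the annotated transcripts of a gene at another locus. Genes named were the 10 genes, in each list the highest 2 and those at 0, the paralogs, the closest coding genes in level, and the highest and lowest markers. Not all of these are reported (1 macrophage marker is not reported here), and other list genes were chosen after their values were seen. The genes and lists were chosen with earlier results of these data known. Tools were Python 3.11.15, pandas 2.3.3, numpy 2.4.6, Biopython 1.88 (alignment), scipy 1.17.1 (intervals) and matplotlib 3.10.9.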

Additional observations from a re-analysis of the deposited data

How the results depend on the processing

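No paired analysis was possible because values of 1 library were analysed, and no replicate could be left out. Over all genes in place of genes with reads, 10 of the 10 genes stood above percentile 99 in CPM. By the longest transcript, 6 of the 10 genes kept their place in the order per length, the *Actb* to *Actg1* ratio was 21.0 and the *Coro1a* to *Coro1b* and *Arhgdib* to *Arhgdia* ratios turned over, to 1.33 and 1.07. By the mean coding transcript, chosen for ratios after seeing the data, as was the addition of pseudogene reads, the *Actb* to *Actg1* ratio was 24.7, and the ratios of *Arhgdib* to *Arhgdia* (1.45), *Arpc2* to *Arpc1b* (0.974), *Arpc2* to *Arpc5* (1.08) and *Lcp1* to *Marcksl1* (1.92) turned over. With pseudogene reads added, the *Actb* to *Actg1* ratio was 16.1. In CPM the *Arpc2* to *Arpc1b* ratio was 0.904. The median percentile of the actin list genes with reads was 89.7 in CPM and 77.7 without genes under opposite-strand exons, also chosen after seeing the data. With 150-base windows, 23.3% of those of *Actg1* occurred elsewhere. These shifts follow from the lengths, windows or reads used. Depth limits only genes with few reads, such as *Fscn2* and *Pfn2*.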
